A study of Homo sapiens with 12 samples.

Results

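The ATP-binding cassette (ABC) transporters were examined as a gene family in Caco-2, a widely used human cell line that was established from a colonic adenocarcinoma and forms an enterocyte-like epithelium. Members were all genes of the array's probe table whose symbol is ABC, a subfamily letter from A to G and a number, which gave 42 genes with 70 probes. A gene was described if a probe of it had a detection p-value under 0.05, that is a signal above the array's negative controls, on all 3 arrays of at least 1 group. That left 21 of the 42 genes, with 28 probes, among 10584 named genes tested in all. The 12 bead arrays fell into 4 groups of 3, namely MTF1 siRNA at 150 µM zinc, MTF1 siRNA at 3 µM zinc, control siRNA at 150 µM zinc and control siRNA at 3 µM zinc. All 4 groups share the cell line and the transfection. MTF1 is the transcription factor through which zinc induces metallothioneins, and its siRNA lowers the transcript without deleting the gene. The sources used here do not state how long the cells were in zinc or under siRNA. The labels do not say that replicates were separate cultures, so p-values measure the spread between these samples, which may be technical.

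ABC proteins bind and hydrolyse ATP, and most use that energy to move a substrate across a membrane. Subfamily A carries mainly lipids, B holds drug, peptide and mitochondrial carriers, C holds organic anion exporters and channel regulators, and D mainly serves peroxisomes. Subfamilies E and F have no membrane part and act in translation, and G carries sterols and drugs. In the intestinal epithelium, ABCB1, ABCC2 and ABCG2 sit in the apical membrane and return drugs and conjugates to the gut lumen, while ABCA1 loads cholesterol onto apolipoprotein A-I at the basolateral side.

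The labels were checked on 3 genes. MTF1 itself was at 5.61, 6.25 and 5.31 with MTF1 siRNA in high zinc, against 6.55, 6.75 and 6.80 with control siRNA in high zinc (normalized log2 intensity, as for all levels here). In low zinc it was at 6.28, 5.69 and 5.72 with MTF1 siRNA, against 6.56, 6.49 and 6.77 with control siRNA. Every array with MTF1 siRNA lay below every control array, although the probe stayed detected on all 12. The metallothionein MT1X was 6.30 ± 0.44 higher in high than in low zinc with MTF1 siRNA and 5.10 ± 0.44 higher with control siRNA (log2 change ± SE), with adjusted p of 1.82e-06 and 1.82e-05 in limma. The zinc exporter SLC30A1 was higher by 2.15 ± 0.10 with MTF1 siRNA and by 2.64 ± 0.10 with control siRNA. Between 18191 and 19469 probes were detected per array. Of 10 colonic epithelial markers 7 entered the tests, while LGALS4, KRT20 and CEACAM5 did not. Their summed intensity was 28338 to 29813 in high and 27228 to 31617 in low zinc with MTF1 siRNA, and, with no overlap, 31869 to 34724 in high and 28232 to 29023 in low zinc with control siRNA. Of 7 fibroblast markers 5 entered (VIM, COL1A1, COL1A2, COL3A1 and LUM, not PDGFRB or DCN). The summed intensity of these 5 was 1547 to 1803 in high and 1022 to 1170 in low zinc with MTF1 siRNA, and 1701 to 1747 in high and 1194 to 1345 in low zinc with control siRNA. The 5 did not move alike. COL1A2 averaged 9.96 in high and 8.97 in low zinc with MTF1 siRNA, and 10.04 in high and 9.25 in low zinc with control siRNA. COL1A1 went the other way, at 6.66 in high and 6.87 in low zinc with MTF1 siRNA, and at 6.66 in high and 7.30 in low zinc with control siRNA. The defining immune markers PTPRC and CD3E did not enter, with CD14 and CD68 the 2 that did. The endothelial marker CDH5 was the 1 of 4 that entered, at 69.4 to 92.1 in high and 37.2 to 57.0 in low zinc with MTF1 siRNA, and at 57.9 to 72.1 in high and 43.6 to 54.4 in low zinc with control siRNA. The fibroblast sum and CDH5 were thus higher in high zinc under both siRNAs, and the colonic epithelial sum with control siRNA, and their part in the results below was not tested.

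Detection divided the family unevenly by subfamily. Of subfamily A, 5 of 12 genes entered (ABCA1, ABCA3, ABCA4, ABCA7 and ABCA9), of B 4 of 8 (ABCB1, ABCB6, ABCB9 and ABCB10) and of C 6 of 10 (ABCC2, ABCC3, ABCC4, ABCC5, ABCC9 and ABCC10). Subfamily D gave 1 of 3 (ABCD3), E its only gene ABCE1, F all 3 (ABCF1, ABCF2 and ABCF3) and G 1 of 5 (ABCG1). For 19 of the 21 the gene's probe was detected on all 12 arrays. The exceptions were ABCA9, detected on 7 arrays, and ABCC9, detected on 3, all of them control siRNA arrays in high zinc. The genes without an entering probe were ABCA2, ABCA5, ABCA6, ABCA8, ABCA10, ABCA12, ABCA13, ABCB4, ABCB5, ABCB8, ABCB11, ABCC8, ABCC11, ABCC12, ABCC13, ABCD2, ABCD4, ABCG2, ABCG4, ABCG5 and ABCG8. For 10 of them no probe was detected on any array. ABCG2, the breast cancer resistance protein of the apical membrane, was detected on 5 arrays and ABCG4 on 7, spread over the groups, and neither reached 3 of 3 in any group.

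**Figure D1:**
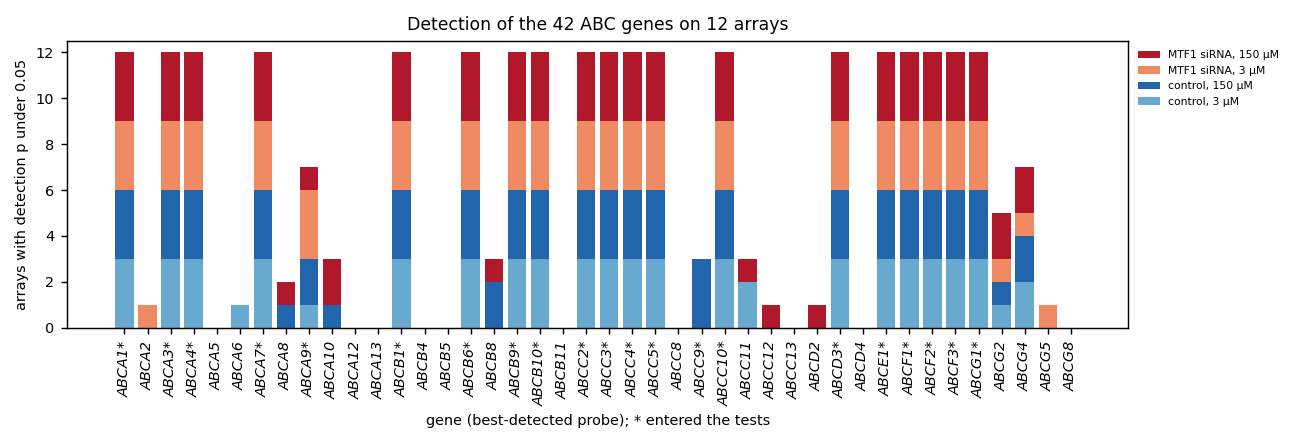
Number of arrays, of 12, with a detection p-value under 0.05 for the best-detected probe of each of the 42 ABC genes, stacked by group (3 arrays each), with an asterisk on the 21 genes that entered the tests. Of the genes that entered, 19 reach 12 arrays, ABCA9 stops at 7 and ABCC9 consists of the 3 control siRNA arrays in high zinc.

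Zinc changed a minority of the detected family, in both directions. With MTF1 siRNA, 5 of 21 genes passed an adjusted p of 0.05 between 150 and 3 µM zinc, with ABCA7 higher and ABCA1, ABCA4, ABCC5 and ABCD3 lower in high zinc. With control siRNA, 6 of 21 passed, with ABCB1, ABCC2 and ABCC9 higher and ABCA1, ABCA4 and ABCC5 lower in high zinc. ABCC9 entered only through its detection in control siRNA cultures in high zinc, so it had to differ there, and the count rests on the other 5. Over all 14285 features tested, 15.7% passed with MTF1 siRNA and 18% with control siRNA. The family's shares were somewhat higher in each, also without ABCC9, and the difference was not tested. Features higher in high zinc made up 7.2% with MTF1 siRNA and 8.62% with control siRNA, and lower ones 8.51% and 9.39%. Without the detection filter, 4 of 42 ABC genes passed with MTF1 siRNA and 2 of 42 with control siRNA, beside 4.04% and 4.13% of all features then tested. The median log2 change over the 21 genes was -0.05 with MTF1 siRNA and 0.01 with control siRNA, beside -0.01 in each over all features. ABCA1, ABCA4 and ABCC5 were the 3 of 21 genes that passed in both comparisons, which share no array. Of all 14285 features, 1137 passed in both. The sign of the change was the same in both for 17 of 21 genes (81%) and for 65.1% of all features. The 21 include ABCC9, which is among the 17, and ABCA9. Each of these entered through detection in 1 group alone, so the filter bears on their signs. Arrays of whole cultures cannot tell fewer cells of a type from less RNA per cell.

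**Figure D2:**
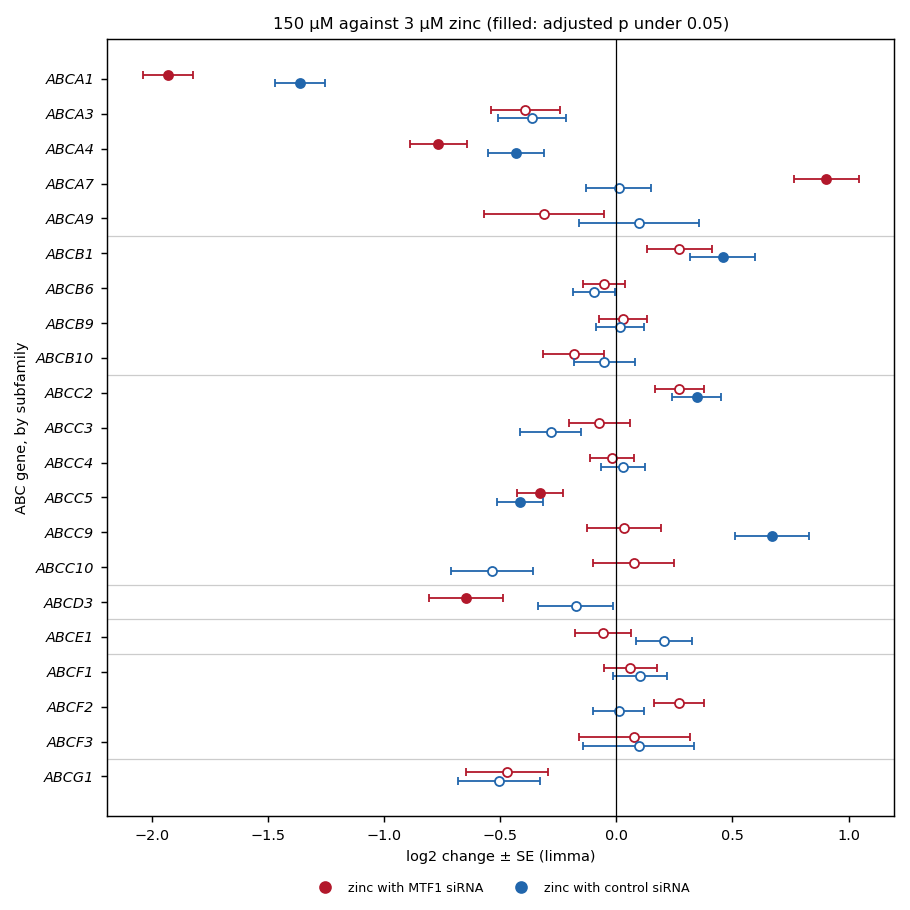
Log2 change between 150 and 3 µM zinc (x axis, positive is higher in 150 µM, bars are the SE from limma) for the 21 ABC genes by subfamily, with MTF1 siRNA above control siRNA in each row and filled points at an adjusted p under 0.05. ABCA1 lies farthest left in both comparisons, at -1.93 and -1.36, and ABCA7 departs from zero with MTF1 siRNA alone, at 0.90.

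ABCA1 exports cellular cholesterol and phospholipid to apolipoprotein A-I and is a textbook target of the liver X receptors (LXR). It showed the family's widest zinc difference in both comparisons. With MTF1 siRNA it measured 7.28, 7.18 and 7.35 in high zinc, against 9.21, 9.27 and 9.12 in low zinc. Control cells had 7.43, 7.49 and 7.71 in high zinc, against 8.93, 9.03 and 8.75 in low zinc. The high and low zinc arrays were far apart under either siRNA, and the 3 arrays of each group lay close together. The change was -1.93 ± 0.11 on the log2 scale with MTF1 siRNA, a 3.82-fold lower signal in high zinc (adjusted p = 2.63e-07, limma). With control siRNA it was -1.36 ± 0.11, or 2.57-fold lower (adjusted p = 8.35e-06, limma).

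ABCA4 moves retinoid-lipid conjugates across photoreceptor membranes and is known mainly from the retina. In this colonic line it measured 6.34, 6.17 and 6.39 in high zinc with MTF1 siRNA, against 7.12, 7.21 and 6.87 in low zinc. Control siRNA gave 6.76, 6.67 and 6.40 in high zinc, against 7.10, 7.05 and 6.98 in low zinc. High zinc was below low zinc without overlap under both siRNAs. ABCA4 fell by 0.77 ± 0.12 with MTF1 siRNA (log2 change of -0.77, adjusted p = 0.00124, limma) and by 0.43 with control siRNA (log2 change of -0.43 ± 0.12, adjusted p = 0.0304, limma). The call with control siRNA held when any of the 6 MTF1 siRNA arrays or control replicate 1 in high zinc was left out. It was lost without any of the other 5 control arrays, where the adjusted p reached 0.111. It was also lost with median centring (adjusted p = 0.0765), without the detection filter (adjusted p = 0.0870), with only the groups compared (adjusted p = 0.0605) and with a mean-variance trend (adjusted p = 0.0517, all limma).

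ABCA7 is a lipid transporter close in sequence to ABCA1, known for phagocytosis and for its genetic link to Alzheimer's disease. It stood apart from ABCA1 here in its direction. With MTF1 siRNA it measured 8.81, 8.62 and 8.67 in high zinc, against 7.48, 7.88 and 8.04 in low zinc. The control siRNA arrays read 8.14, 8.06 and 8.07 in high zinc, against 7.96, 8.01 and 8.28 in low zinc. The 3 arrays with MTF1 siRNA in high zinc were the highest of all 12, and the control arrays overlapped between zinc levels. ABCA7 rose by 0.90 ± 0.14 in high zinc with MTF1 siRNA (1.87-fold, adjusted p = 0.00102, limma), while its change with control siRNA was 0.01 ± 0.14 (adjusted p = 0.969, limma). The 95% interval of the change with control siRNA ran from -0.30 to 0.31.

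ABCA3, which supplies lipid to surfactant bodies in the lung, and ABCA9 did not pass. ABCA3 measured 6.16, 5.90 and 6.41 in high zinc against 6.49, 6.50 and 6.66 in low zinc with MTF1 siRNA, a change of -0.39 (adjusted p = 0.0980, limma). Its change with control siRNA was -0.36 (adjusted p = 0.110, limma). ABCA9 entered only through its detection on the 3 arrays with MTF1 siRNA in low zinc, the group with its highest mean. That favours a lower value in high zinc with MTF1 siRNA, so its changes are given as a description. They were -0.31 with MTF1 siRNA and 0.10 with control siRNA, with an SE of 0.26 in each.

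**Figure D3:**
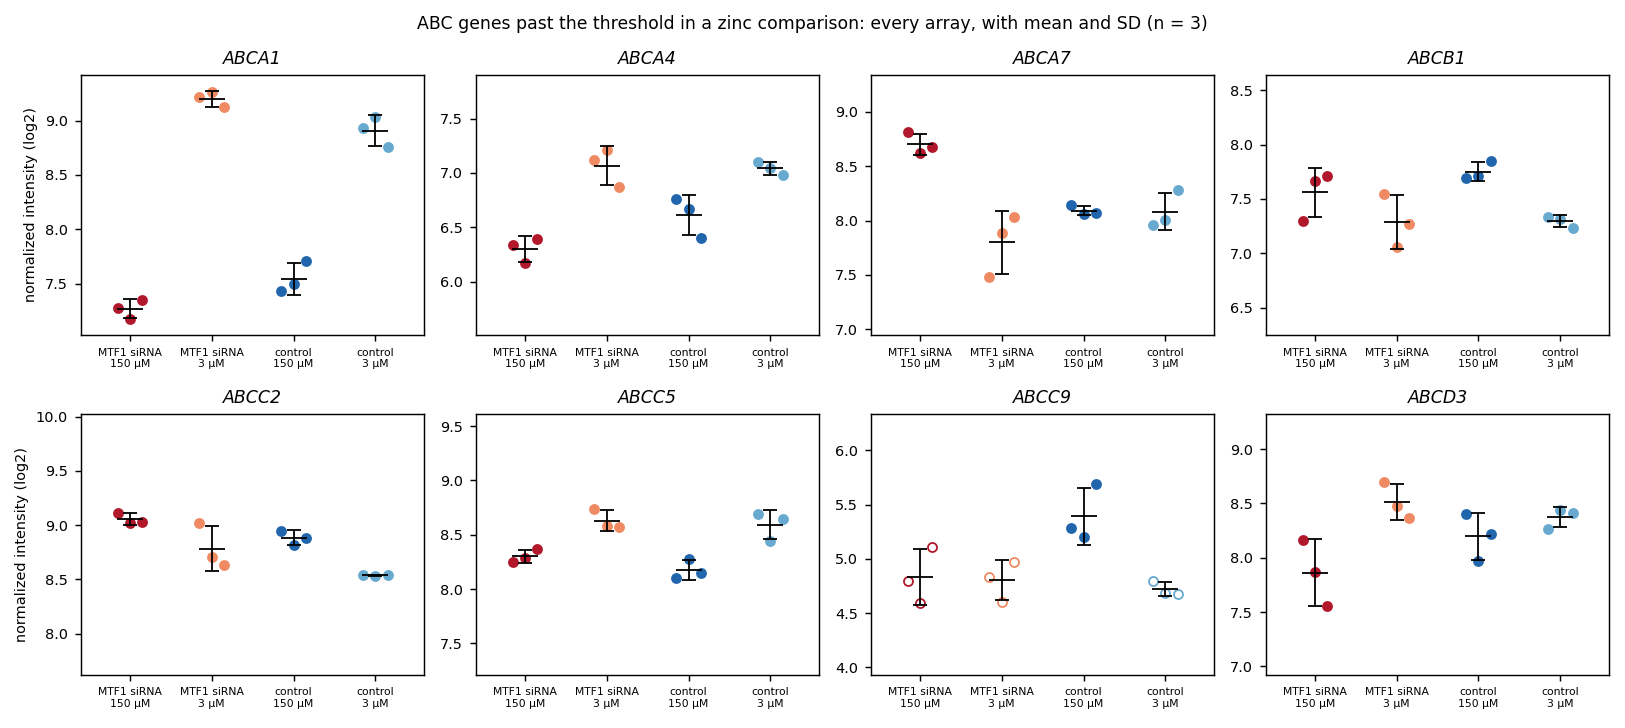
Normalized log2 intensity (y axis, the same span in each panel) on every array for the 8 ABC genes past the threshold in a zinc comparison, with the mean and SD of 3 arrays, and open points where the 3 arrays of a group were not all detected. ABCA1 separates by zinc under both siRNAs, the 3 ABCA7 values with MTF1 siRNA in 150 µM zinc lie above its other 9, and ABCC9 has filled points in the control siRNA group in 150 µM zinc alone.

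In subfamily B, ABCB1 was the gene that passed, with control siRNA. It encodes P-glycoprotein, which pumps many drugs back into the gut lumen. With control siRNA it measured 7.69, 7.71 and 7.85 in high zinc, against 7.33, 7.32 and 7.23 in low zinc. The MTF1 siRNA arrays read 7.30, 7.67 and 7.71 in high zinc, against 7.55, 7.05 and 7.26 in low zinc. The control arrays did not overlap, whereas with MTF1 siRNA the lowest high-zinc array lay inside the low-zinc range. ABCB1 rose by 0.46 ± 0.14 with control siRNA (1.37-fold, adjusted p = 0.0409, limma), and its change with MTF1 siRNA was 0.27 ± 0.14 (adjusted p = 0.222, limma). The difference between these changes, -0.19 ± 0.20, did not pass (adjusted p = 0.670, limma). The control call was lost without any of the 6 control arrays or MTF1 siRNA replicate 3 in low zinc, with an adjusted p of up to 0.122. The same held without the detection filter (adjusted p = 0.109), with a replicate block (adjusted p = 0.0664) and with array weights (adjusted p = 0.0565, all limma). The other 3 genes moved little with zinc. ABCB6, a porphyrin-binding transporter, changed by -0.05 with MTF1 siRNA and by -0.10 with control siRNA. ABCB9, a lysosomal peptide transporter, changed by 0.03 with MTF1 siRNA and by 0.02 with control siRNA. ABCB10, of the inner mitochondrial membrane, changed by -0.18 with MTF1 siRNA and by -0.05 with control siRNA, and none of these 3 passed.

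Subfamily C held changes in both directions. ABCC5, an exporter of cyclic nucleotides and other organic anions, measured 8.25, 8.29 and 8.37 in high zinc with MTF1 siRNA, against 8.74, 8.58 and 8.57 in low zinc. The control siRNA arrays read 8.10, 8.28 and 8.15 in high zinc, against 8.69, 8.44 and 8.65 in low zinc. High zinc was below low zinc without overlap in both. The change was -0.33 ± 0.10 with MTF1 siRNA (adjusted p = 0.0417, limma) and -0.42 ± 0.10 with control siRNA (adjusted p = 0.0137, limma). The call with MTF1 siRNA was lost without any of the 6 MTF1 siRNA arrays, or without control replicate 3 in high or in low zinc, with an adjusted p of up to 0.136. It was also lost with median centring (adjusted p = 0.0506), without the detection filter (adjusted p = 0.126), with a replicate block (adjusted p = 0.0712) and with only the groups compared (adjusted p = 0.0610, all limma). The control call was lost without control replicate 1 in low zinc (adjusted p = 0.0578) and with only the groups compared (adjusted p = 0.0554, limma).

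ABCC2 exports conjugated bilirubin, drugs and other organic anions across the apical membrane. With control siRNA it measured 8.95, 8.81 and 8.88 in high zinc, against 8.54, 8.53 and 8.54 in low zinc. MTF1 siRNA gave 9.12, 9.02 and 9.03 in high zinc, against 9.02, 8.70 and 8.63 in low zinc. The control groups were clear of each other, while with MTF1 siRNA the lowest high-zinc array barely exceeded the highest low-zinc array. ABCC2 rose by 0.35 ± 0.11 with control siRNA (1.27-fold, adjusted p = 0.0419, limma), and its change with MTF1 siRNA was 0.27 ± 0.11 (adjusted p = 0.108, limma). The call held in 2 of the 12 fits with an array left out, those without MTF1 siRNA replicate 1 or 3 in low zinc, and the adjusted p reached 0.103 in the others. It was lost without the detection filter (adjusted p = 0.123) and with only the groups compared (adjusted p = 0.0614, limma).

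ABCC9 is the sulphonylurea receptor subunit of ATP-sensitive potassium channels and no pump in itself. With control siRNA it measured 5.28, 5.20 and 5.69 in high zinc, against 4.79, 4.69 and 4.68 in low zinc. The MTF1 siRNA arrays read 4.80, 4.60 and 5.11 in high zinc, against 4.84, 4.60 and 4.97 in low zinc. The probe was above background on the 3 control arrays in high zinc and not above background on the other 9. Since that detection is what let ABCC9 into the tests, its values are given as a description, with no test. The probe was at least 1.13-fold higher in high zinc with control siRNA, the bound being set by the lowest signal among detected probes. The second ABCC9 probe, detected on 2 arrays, went the other way, with a log2 change of -0.26 in high zinc with control siRNA (adjusted p = 0.632 without the detection filter, limma).

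ABCC3, a basolateral exporter of conjugates, ABCC4, an exporter of cyclic nucleotides and prostaglandins, and ABCC10, a drug exporter, did not pass. ABCC10 measured 5.71, 5.17 and 5.42 in high zinc with control siRNA, against 6.10, 5.76 and 6.05 in low zinc. The groups did not overlap, and the change of -0.54 ± 0.18 had an adjusted p of 0.0538 in limma. With MTF1 siRNA its change was 0.07 ± 0.18. ABCC3 changed by -0.07 with MTF1 siRNA and by -0.28 with control siRNA. By the probe taken for the gene, ABCC4 changed by -0.02 with MTF1 siRNA and by 0.03 with control siRNA. The 95% intervals were -0.23 to 0.19 and -0.18 to 0.24, and a second probe read differently, as given below.

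ABCD3 imports long-chain and branched-chain acyl-CoA into peroxisomes. With MTF1 siRNA it measured 8.17, 7.87 and 7.55 in high zinc, against 8.70, 8.47 and 8.37 in low zinc. Control siRNA gave 8.41, 7.97 and 8.21 in high zinc, against 8.27, 8.44 and 8.41 in low zinc. The groups were apart with MTF1 siRNA and overlapped with control siRNA. ABCD3 fell by 0.65 ± 0.16 with MTF1 siRNA (log2 change of -0.65, 1.57-fold lower, adjusted p = 0.0167, limma), and its change with control siRNA was -0.18 ± 0.16 (adjusted p = 0.482, limma). The difference between these changes, -0.47 ± 0.23, did not pass (adjusted p = 0.330, limma). The call with MTF1 siRNA was lost without MTF1 siRNA replicate 3 in high zinc (adjusted p = 0.0669, limma) or without MTF1 siRNA replicate 1 in low zinc (adjusted p = 0.0687, limma).

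In subfamilies E, F and G no gene passed in either zinc comparison. ABCE1, which splits ribosomes for recycling, measured 10.01, 9.98 and 10.31 in high zinc with control siRNA, against 9.73, 9.97 and 9.98 in low zinc, a change of 0.21 ± 0.12. MTF1 siRNA gave 9.85, 9.78 and 9.91 in high zinc, against 10.06, 9.91 and 9.74 in low zinc, a change of -0.06 ± 0.12. The groups overlapped under both siRNAs. ABCF1, a factor of translation initiation, ABCF2 and ABCF3 are soluble ATPases. Their changes ran from 0.06 to 0.27 with MTF1 siRNA and from 0.01 to 0.10 with control siRNA. ABCF2 was the farthest from zero, at 8.96, 8.85 and 8.92 in high zinc against 8.61, 8.60 and 8.71 in low zinc with MTF1 siRNA, and did not pass (adjusted p = 0.118, limma).

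ABCG1 delivers cholesterol to high-density lipoprotein and, like ABCA1, is an LXR target. With MTF1 siRNA it measured 5.99, 5.90 and 5.58 in high zinc, against 6.28, 6.37 and 6.23 in low zinc. Control siRNA gave 5.65, 6.16 and 5.80 in high zinc, against 6.74, 6.28 and 6.11 in low zinc. The first pair of groups did not overlap and the second did. Neither change passed, at -0.47 ± 0.18 with MTF1 siRNA (adjusted p = 0.0964, limma) and -0.51 ± 0.18 with control siRNA (adjusted p = 0.0669, limma).

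Of the 21 genes, 7 had a second probe that passed the detection filter. ABCC5 was the gene whose probes were both past the threshold. Its second probe measured 8.04, 8.01 and 8.07 in high zinc with MTF1 siRNA, against 8.32, 8.46 and 8.36 in low zinc, a change of -0.34 ± 0.09 (adjusted p = 0.0269 with all probes as features, limma). With control siRNA it measured 8.08, 8.24 and 8.19 in high zinc, against 8.55, 8.49 and 8.68 in low zinc, a change of -0.40 ± 0.09 (adjusted p = 0.0118, limma). The second ABCE1 probe passed with control siRNA, at 0.39 ± 0.11 (adjusted p = 0.0316, limma). The ABCG1 probes disagreed in sign, the second one changing by 0.28 ± 0.12 with MTF1 siRNA and by 0.18 ± 0.12 with control siRNA, neither past the threshold. Second probes of ABCB9, ABCC4, ABCF1 and ABCF2 did not pass in either zinc comparison. That of ABCC4 changed by 0.31 ± 0.13 with control siRNA (adjusted p = 0.121, limma) and by -0.09 ± 0.13 with MTF1 siRNA. Between MTF1 and control siRNA in high zinc, the same probe changed by -0.50 ± 0.13 (adjusted p = 0.0679, limma), beside -0.02 for the probe taken.

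**Figure D4:**
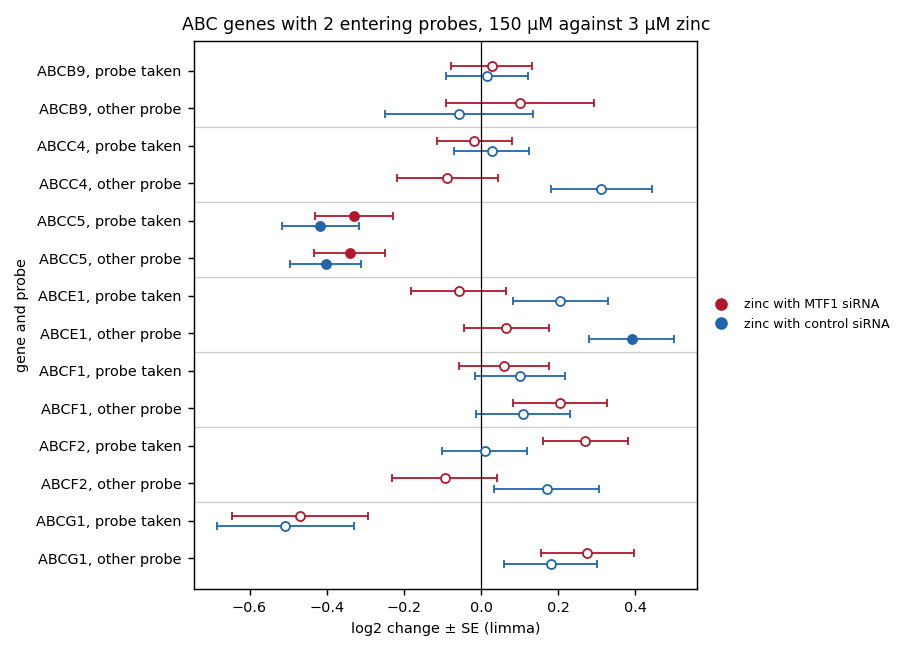
Log2 change between 150 and 3 µM zinc (x axis, bars are the SE from limma) for the 7 ABC genes with a further probe past the detection filter, the probe taken for the gene above the other, with filled points at an adjusted p under 0.05 over all probes. The ABCC5 probes coincide below zero, and the ABCG1 probes lie on opposite sides of it.

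MTF1 siRNA was next set against control siRNA at each zinc level, which asks whether the family's transcripts depend on MTF1. No ABC gene passed in high zinc, where 1.9% of all features did, and none passed in low zinc, where 0.119% did (limma). MTF1 itself did not pass in low zinc, so the absence of calls there cannot show that the family is independent of MTF1. At an unadjusted p under 0.05, 6 of 21 genes stood out in high zinc and 2 of 21 in low zinc, against 20.7% and 14.7% of all features. The 6 include ABCC9, which entered only through its detection on the control siRNA arrays in high zinc. It had to differ there, so the count in high zinc rests on the others. The median change over the 21 genes was -0.13 in high zinc and 0.01 in low zinc, beside 0.00 and 0.01 over all features.

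ABCA7 came nearest to a call, with a change of 0.61 ± 0.14 in high zinc from the levels given above (adjusted p = 0.0502, limma). It passed in 6 of 10 alternative settings. In low zinc its change was -0.28 ± 0.14 (adjusted p = 0.378, limma). ABCC9 measured 4.80, 4.60 and 5.11 with MTF1 siRNA in high zinc, none above background, against 5.28, 5.20 and 5.69 with control siRNA, again as a description. ABCA1 was -0.28 ± 0.11 with MTF1 siRNA in high zinc (adjusted p = 0.179, limma) and 0.29 ± 0.11 in low zinc (adjusted p = 0.256, limma). The ABCA1 groups did not overlap at either zinc level, and the signs were opposite.

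The interaction, the zinc change with MTF1 siRNA minus that with control siRNA, passed for no ABC gene and for 0.021% of all features (limma). At an unadjusted p under 0.05 it held 4 of 21 genes, against 15.9% of all features. One was ABCC9, whose levels in 3 of the 4 groups were not above background and from which no difference is read. ABCA7 had the widest difference, 0.89 ± 0.20 (unadjusted p = 7.49e-04, adjusted p = 0.161, limma). The difference was 0.61 ± 0.25 for ABCC10 and -0.57 ± 0.15 for ABCA1 (adjusted p = 0.169 for ABCA1, limma). The calls of ABCA7 and ABCD3 with MTF1 siRNA alone, and of ABCB1 and ABCC2 with control siRNA alone, are thus not shown to differ between the siRNAs.

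**Figure D5:**
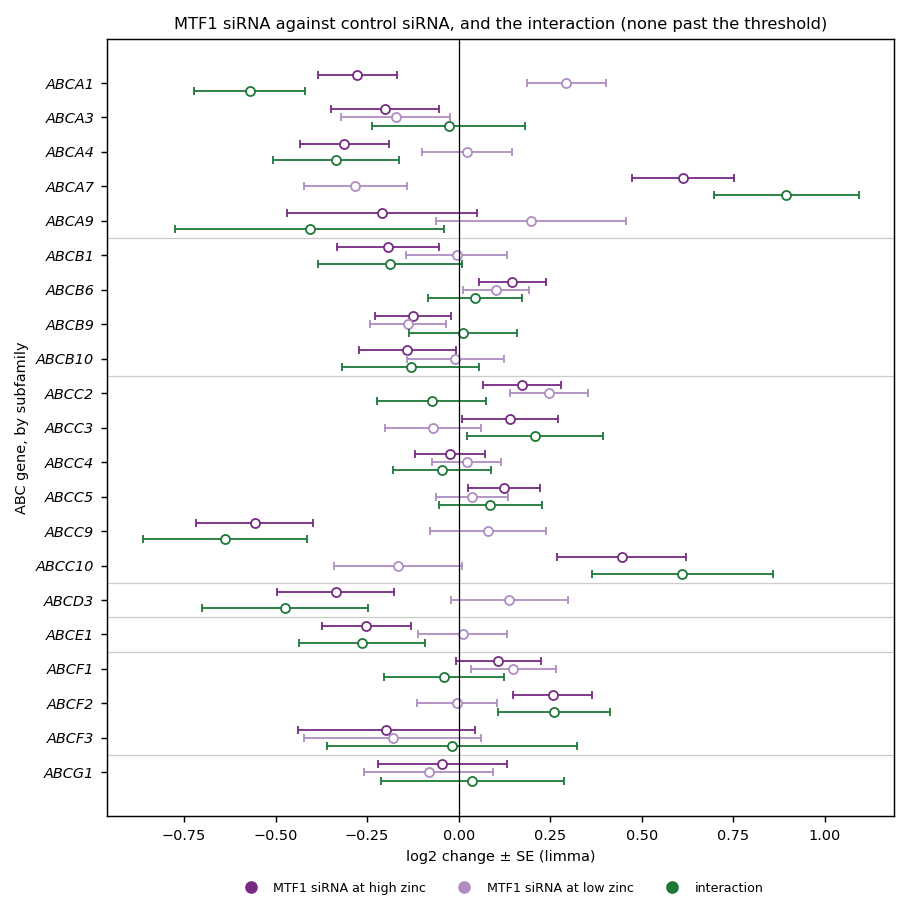
Log2 change between MTF1 siRNA and control siRNA in 150 and in 3 µM zinc, and the interaction (x axis, bars are the SE from limma), for the 21 ABC genes by subfamily. All points are open because none passed an adjusted p of 0.05, and ABCA7 lies farthest right in high zinc, at 0.61, and in the interaction, at 0.89.

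Promoter sequences were compared because MTF1 binds metal response elements and LXR binds a direct repeat. RefSeq windows of 300 bases (GRCh38.p14, 250 before to 50 after each annotated start) were matched for 34 of the 42 genes, in 51 windows. The metal response element core, TGCACNC or TGCGCNC on either strand, occurred in 22 of 51 windows (43.1%), beside 29.6% of all 35116 windows. It was found for 4 of the 7 matched genes that passed in a zinc comparison, namely ABCA1, ABCA7, ABCC2 and ABCD3, which are shown with the motifs in capitals. Counted the same way it was found for 12 of the 18 matched genes that entered and 19 of the 34 matched in all.
ABCA1, chr9:104928106-104928405 (- strand): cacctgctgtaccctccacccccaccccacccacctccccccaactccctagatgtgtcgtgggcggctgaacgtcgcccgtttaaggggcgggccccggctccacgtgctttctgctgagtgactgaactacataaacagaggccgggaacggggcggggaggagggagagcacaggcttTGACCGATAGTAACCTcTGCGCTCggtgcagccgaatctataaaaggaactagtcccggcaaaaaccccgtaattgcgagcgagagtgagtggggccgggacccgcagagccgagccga
ABCA7, chr19:1039857-1040156 (+ strand): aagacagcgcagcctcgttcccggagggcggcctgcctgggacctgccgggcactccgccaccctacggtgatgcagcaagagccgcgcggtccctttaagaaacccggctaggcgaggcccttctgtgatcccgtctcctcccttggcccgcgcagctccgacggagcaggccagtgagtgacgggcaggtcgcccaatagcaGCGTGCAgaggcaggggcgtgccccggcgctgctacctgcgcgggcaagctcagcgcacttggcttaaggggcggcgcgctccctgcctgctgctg
ABCC2, chr10:99782390-99782689 (+ strand): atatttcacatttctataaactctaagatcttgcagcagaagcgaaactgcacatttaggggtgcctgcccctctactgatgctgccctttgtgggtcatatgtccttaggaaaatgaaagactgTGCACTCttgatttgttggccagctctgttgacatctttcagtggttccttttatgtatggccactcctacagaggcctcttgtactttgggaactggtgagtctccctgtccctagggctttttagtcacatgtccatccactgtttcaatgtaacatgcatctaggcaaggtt
ABCD3, chr1:94418139-94418438 (+ strand): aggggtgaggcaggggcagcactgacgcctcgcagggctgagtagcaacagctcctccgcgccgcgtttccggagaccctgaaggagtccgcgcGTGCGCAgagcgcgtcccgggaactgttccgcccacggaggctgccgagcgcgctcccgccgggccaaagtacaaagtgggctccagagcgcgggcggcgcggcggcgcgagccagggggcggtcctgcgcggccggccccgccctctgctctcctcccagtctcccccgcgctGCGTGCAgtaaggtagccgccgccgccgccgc
The first capital block of ABCA1, at position -69 from the start, is its LXR repeat, read on the opposite strand as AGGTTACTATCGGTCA, and it ends next to a metal response element core without sharing a base. This motif, AGGTCA repeated after 4 bases with up to 2 mismatches on either strand, occurred in 2 of 51 windows, those of ABCA1 and ABCD2, and in 2.34% of all windows. The antioxidant response element core TGACNNNGC, on either strand, occurred in 12 of 51 windows, in none of a called gene, and in 13.3% of all windows. Matches of different motifs can overlap, as those of ABCA3 did. A match in these windows describes the letters and not a bound site.

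Genes that work beside the family were described by list, and in the counts rose or fell means past the threshold. Of all features, 7.2% passed as higher and 8.51% as lower in high zinc with MTF1 siRNA. With control siRNA the shares were 8.62% and 9.39%. No gene of any list passed the interaction (limma), so calls under either siRNA alone are not shown to differ between the siRNAs. Among regulators of ABC genes, 10 of 13 on the array entered. In high zinc 5 fell with MTF1 siRNA and none rose, and 3 fell and 1 rose with control siRNA. LXR alpha, NR1H3, changed by -0.55 ± 0.14 with MTF1 siRNA and by -0.59 ± 0.14 with control siRNA. Its partner RXRA measured 9.67, 9.60 and 9.56 in high zinc with MTF1 siRNA, against 10.38, 10.40 and 10.35 in low zinc, and changed by -0.77 ± 0.08 (adjusted p = 7.34e-05, limma). With control siRNA RXRA changed by -0.76 ± 0.08 (adjusted p = 1.26e-04, limma). SREBF1, a regulator of lipid synthesis that LXR induces, changed by -0.45 with MTF1 siRNA and by -0.38 with control siRNA and passed in both. NR5A2 and PPARG fell with MTF1 siRNA, and the stress regulator NFE2L2 rose with control siRNA by 0.43 ± 0.13 (adjusted p = 0.0471, limma). The 7 other LXR targets, a list that also holds SREBF1, had 3 lower with MTF1 siRNA (LPCAT3, SCD and SREBF1) and 2 lower with control siRNA (SREBF1 and PLTP). None of the 7 passed as higher. MYLIP went the other way, averaging 10.37 in high and 10.23 in low zinc with MTF1 siRNA, and 10.83 and 10.55 with control siRNA. SMPDL3A averaged 10.03 in high and 9.99 in low zinc with control siRNA, and 9.79 and 10.06 with MTF1 siRNA. The other targets averaged lower in high zinc under both siRNAs. The median log2 change of the regulators was -0.32 with MTF1 siRNA and -0.20 with control siRNA, and that of the LXR targets -0.28 and -0.11, beside -0.01 in each comparison over all features. MYLIP, which degrades lipoprotein receptors, was the 1 that passed between siRNAs, lower by 0.46 in high zinc with MTF1 siRNA (log2 change of -0.46 ± 0.09, adjusted p = 0.0336, limma).

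Of 7 genes of cholesterol and bile acid transport outside the family, 1 rose and 2 fell with MTF1 siRNA, and 1 rose and 3 fell with control siRNA. Over all features, 7.2% rose and 8.51% fell with MTF1 siRNA, and 8.62% rose and 9.39% fell with control siRNA. SOAT2, which esterifies cholesterol in enterocytes, measured 5.55, 5.50 and 5.43 in high zinc with MTF1 siRNA, against 6.87, 6.93 and 7.03 in low zinc. Its change was -1.45 ± 0.14 with MTF1 siRNA and -1.19 ± 0.14 with control siRNA, the widest of the list. APOA1, the acceptor of cholesterol from ABCA1, changed by -0.55 with MTF1 siRNA and by -0.32 with control siRNA. The lysosomal cholesterol transporter NPC1 rose by 0.28 with MTF1 siRNA and by 0.30 with control siRNA. Of 6 peroxisomal fatty acid enzymes and carriers beside ABCD3, 4 fell with MTF1 siRNA (HSD17B4, PHYH, AMACR and SLC27A2). With control siRNA 3 fell (HSD17B4, ACAA1 and AMACR), and none passed as higher under either siRNA. AMACR measured 9.05, 9.12 and 8.96 in high zinc with MTF1 siRNA, against 9.96, 9.65 and 9.76 in low zinc. The median log2 change was -0.57 with MTF1 siRNA and -0.30 with control siRNA for the peroxisomal list, and -0.16 and -0.15 for the cholesterol and bile acid list. None of the 7 ribosome recycling and translation partners of ABCE1 and the F subfamily passed in either zinc comparison (limma). Of the 8 iron-sulphur and haem partners of mitochondrial ABCB proteins none passed with MTF1 siRNA, while SLC25A37, a mitochondrial iron importer, and CIAO1 fell with control siRNA by 0.68 and 0.61 (log2 changes of -0.68 and -0.61).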

How the data were processed

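RNA was profiled on 12 Illumina HumanHT-12 V4 arrays. The values used were the deposited bead-summary intensities of each probe, which per the file headers are not normalized. Each intensity comes with a detection p-value, so named in the deposited table, that sets it against negative controls. The authors' own log2 values, deposited as a second table, served as an alternative. No source used here names the scanner software. Group and replicate were read from the titles, which name MTF1, although the series design text names ZNF658 as the target. The files give no slide or scan batch.

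In limma 3.58.1 (R 4.3.3), neqc corrected the background by normexp using the detection p-values, with an offset of 16, and then normalized by quantiles on the log2 scale. Of 47323 probes, 17413 met the detection rule. A gene was its entering probe of highest mean, and each probe lacking a unique symbol was its own feature, giving 14285 features. One model with a mean for each group covered all 12 arrays (lmFit and eBayes). P-values are two-sided, adjusted by Benjamini-Hochberg within a comparison over all 14285 features, and called under 0.05. The number of arrays, 3 per group, limits the precision. Levels of different probes were not compared, except to choose a gene's probe and to set bounds at background. The tests were checked on simulated data.

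All entering members were described by subfamily, with every array's value for those past the threshold, and members of related lists were named where they passed in a comparison. The members, lists and tests were chosen with earlier results of these data known. Promoter windows were matched by gene symbol. Alternatives covered background correction, normalization, the authors' values, the detection filter, the probe per gene, the replicate number as a block, the samples in the fit, the empirical Bayes step, array weights and each array left out.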

Additional observations from a re-analysis of the deposited data

How the results depend on the processing

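With MTF1 siRNA, the zinc changes of ABCA1, ABCA7 and ABCA4 stayed past the threshold in all 10 alternative settings and all 12 fits with an array left out, as did that of ABCA1 with control siRNA. The count of ABC genes past the threshold, 5 between zinc levels with MTF1 siRNA, was 4 to 6 over the settings and 4 to 5 with an array left out. With control siRNA the count of 6, ABCC9 included, was 2 without a filter on dim probes (where 4.13% of features passed) and 3 with only the groups compared, and 2 to 6 with an array left out. It was 2 without control siRNA replicate 3 in high zinc or replicate 1 in low zinc. Without the filter ABCC9 was represented by its other probe, and its zinc change with control siRNA was -0.26 (adjusted p = 0.632, limma). Between siRNAs in high zinc the count of 0 became 1, namely ABCA7, with no background correction (adjusted p = 0.00534), the authors' values (adjusted p = 0.00567), detection p under 0.01 (adjusted p = 0.0386), all entering probes (adjusted p = 0.0466), a mean-variance trend (adjusted p = 0.00917) or array weights (adjusted p = 0.0386, all limma). With an array left out it was 0 to 1, ABCA7 passing without MTF1 siRNA replicate 1 or 3, or control replicate 3, in low zinc. In low zinc it was 0 throughout. For the interaction it was 1, again ABCA7, with no background correction (adjusted p = 0.0315), the authors' values (adjusted p = 0.0320) or a mean-variance trend (adjusted p = 0.0351, limma), and 0 with any array left out. Median centring gave 1041 higher and 978 lower features with MTF1 siRNA against 1028 and 1216, and 1259 and 1017 with control siRNA against 1232 and 1341. With the replicate number as a block the counts were 4 with MTF1 siRNA and 5 with control siRNA, without ABCC5 (adjusted p = 0.0712) and ABCB1 (adjusted p = 0.0664, limma). Arrays of the same number correlated at -0.10 to 0.14 in their deviations from the group means, and arrays of other numbers at -0.13 to 0.15. With 3 arrays per group this shows no sign of pairing by number but cannot exclude it. Over all features, the count between zinc levels with control siRNA was 2573 (1540 to 3142 over the settings), that between siRNAs 271 in high zinc (30 to 977) and 17 in low zinc (0 to 159), and that of the interaction 3 (1 to 146).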

Other observations

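Some ABC proteins carry no ABC symbol and so stood outside the family as chosen here. Of 9 such genes and direct partners tested, 3 rose and 2 fell in high zinc under each siRNA, with a median log2 change of 0.01 with MTF1 siRNA and -0.02 with control siRNA. Over all features, 7.2% rose and 8.51% fell with MTF1 siRNA, and 8.62% rose and 9.39% fell with control siRNA. TAP1 and TAP2, which together bring peptides into the endoplasmic reticulum for antigen presentation, were higher in high zinc under both siRNAs. TAP1 measured 8.25, 8.29 and 8.21 in high zinc with MTF1 siRNA, against 7.03, 7.25 and 7.18 in low zinc, and rose by 1.10 ± 0.11 (adjusted p = 4.20e-05, limma). It rose by 0.99 ± 0.11 with control siRNA (adjusted p = 1.36e-04, limma). TAP2 rose by 0.86 ± 0.17 with MTF1 siRNA and by 1.28 ± 0.17 with control siRNA. The chloride channel CFTR, an ABC protein of the apical membrane, measured 6.01, 6.05 and 6.00 in high zinc with MTF1 siRNA, against 7.06, 7.04 and 7.09 in low zinc. It fell by 1.04 ± 0.14 with MTF1 siRNA (log2 change of -1.04, adjusted p = 4.28e-04, limma) and by 0.63 with control siRNA (log2 change of -0.63 ± 0.14, adjusted p = 0.0110, limma). KCNJ8, the pore subunit that pairs with ABCC9, rose by 0.56 ± 0.12 with MTF1 siRNA and by 0.62 ± 0.12 with control siRNA. The scaffold PDZK1 fell with MTF1 siRNA, by 0.75 (log2 change of -0.75), and the scaffold NHERF1 with control siRNA, by 0.39 (log2 change of -0.39). Both averaged lower in high zinc under the other siRNA too, without passing. PDZK1 was at 8.02 in high and 8.41 in low zinc with control siRNA, and NHERF1 at 11.02 and 11.33 with MTF1 siRNA. No gene of this list passed the interaction (limma).

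Among uptake carriers, 3 of 7 on the array entered. SLCO4A1 rose in high zinc by 0.67 ± 0.11 with MTF1 siRNA and by 0.62 ± 0.11 with control siRNA. SLCO2B1, an apical carrier of drugs and steroid sulphates, fell by 0.74 ± 0.10 with MTF1 siRNA (log2 change of -0.74) and by 0.34 with control siRNA (log2 change of -0.34 ± 0.10). SLC22A5, the carnitine carrier, fell with MTF1 siRNA by 0.50 (log2 change of -0.50 ± 0.14). With control siRNA it averaged 6.48 in high and 6.71 in low zinc and did not pass. None of these carriers passed the interaction (limma).

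Of the family's pseudogenes whose symbols fall outside the pattern used for members, ABCC6P2 was detected on all 12 arrays and ABCC6P1 on 11. ABCA11P and ABCA17P were detected on 2 and 1. ABCC6P2 was lower in high zinc with control siRNA, at -0.75 ± 0.19 (adjusted p = 0.0195, limma), and changed by -0.56 ± 0.19 with MTF1 siRNA (adjusted p = 0.0695, limma). ABCC6P2 was singled out after its values were seen, and its probe may also bind transcripts of a near-identical gene.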
